A study of Homo sapiens with 23 samples.

Results

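The 10 genes IGF1, IGF1R, INSR and IGFBP1 to IGFBP7 of the insulin-like growth factor (IGF) system were followed through the differentiation of human embryonic stem cells into cardiomyocytes. IGF1 encodes a ligand, IGF1R and INSR receptors, and the other 7 binding proteins. They were chosen by name, as the rows of the raw count matrix that carry these symbols, and all 10 were present among the 57477 genes used. RNA-seq counts came from H1-hESC, an established human embryonic stem cell line of wild-type (WT) genotype, at 8 times: day 0 (stem cells), day 1 (mesendoderm), day 3 (cardiac mesoderm), days 5 and 7 (cardiac progenitors) and days 10, 14 and 28 (cardiomyocytes), with 3 libraries a day and 2 at day 10. All libraries share 1 line and 1 genotype, and every cell type name is the label of its day. Stem cells were kept in mTeSR1 and the derived cardiomyocytes in RPMI with insulin. Whether these media differed in their supply of ligand for the insulin receptor was not tested. The labels number the replicates without saying whether they came from separate differentiations, so p-values measure the spread between these libraries only.

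IGF1 and IGF2 are secreted growth factors that signal through the IGF1 receptor, a tyrosine kinase closely related to the insulin receptor, and onward to the PI3K and AKT kinases, the TOR kinase and the FOXO transcription factors. The binding proteins IGFBP1 to IGFBP6 hold IGFs in the extracellular space with high affinity, and can either keep them from the receptor or deliver them to it. IGFBP7 binds IGFs weakly and is also known as a matrix-associated protein of vessels and stroma. In heart development, IGF signalling is known for promoting the proliferation of cardiomyocytes, and secreted proteases such as PAPPA release IGFs by cutting binding proteins.

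Promoter sequence from the RefSeq table (GRCh38.p14) was matched for 8 of the 10 genes, in 11 windows of 300 bases; IGFBP1 and IGFBP7 were not matched. The 250 bases before the start in that table are printed below for IGFBP3 and IGFBP5, whose counts were both higher at day 5 than at day 3, and for IGFBP4, which passed the test between no pair of neighbouring days. They run 5′ to 3′ on the strand of the gene. Capitals mark matches to the TATA box core TATAAA, to the GC box GGGCGG, to the forkhead motif GTAAACA or to the E-box CACGTG. Both strands were searched, so a GC box on the other strand reads CCGCCC. No match overlaps another in these windows. RefSeq places the start of IGFBP3 and of IGFBP6 further in than the GENCODE bounds given below, so the IGFBP3 window lies inside those bounds, and the IGFBP6 window, which is exon of 1 GENCODE transcript for most of its length, is not printed.
IGFBP3, chr7:45921273-45921522, minus strand: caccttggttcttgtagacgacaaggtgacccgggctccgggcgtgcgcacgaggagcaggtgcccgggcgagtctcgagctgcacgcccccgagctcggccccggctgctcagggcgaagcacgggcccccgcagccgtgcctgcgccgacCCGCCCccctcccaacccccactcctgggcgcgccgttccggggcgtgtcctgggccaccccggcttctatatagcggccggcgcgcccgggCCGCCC
IGFBP5, chr2:216695550-216695799, minus strand: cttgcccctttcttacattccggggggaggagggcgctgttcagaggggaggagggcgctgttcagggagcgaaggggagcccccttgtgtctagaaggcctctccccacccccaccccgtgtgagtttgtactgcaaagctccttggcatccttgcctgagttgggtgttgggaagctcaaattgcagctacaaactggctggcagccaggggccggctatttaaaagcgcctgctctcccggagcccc
IGFBP4, chr17:40443200-40443449, plus strand: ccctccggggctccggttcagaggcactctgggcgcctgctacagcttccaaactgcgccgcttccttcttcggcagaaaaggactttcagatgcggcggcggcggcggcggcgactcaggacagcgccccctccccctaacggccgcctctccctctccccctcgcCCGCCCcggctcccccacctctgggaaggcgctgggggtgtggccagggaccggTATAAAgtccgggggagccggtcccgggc

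The IGFBP3 window held GGGCGG matches that begin 98 and 6 bases before the start, and IGFBP6 held a GGGCGG match 17 bases and a GTAAACA match 186 bases before it. IGFBP4 was the one gene of the 8 with TATAAA, 29 bases before its start. IGFBP5 held none of the 4 motifs. Among all 35116 promoters of the table, the TATA box core was found in 11.5%, the GC box in 45.0%, the forkhead motif in 3.42% and the E-box in 7.26%. GC content of the full 300-base windows was 74.7% for IGFBP3, 59.0% for IGFBP5, 61.7% for IGFBP6 and 74.0% for IGFBP4, against a median of 58.7% over the table. A match is only a description of letters.

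IGFBP2 and IGFBP5 are neighbours on chromosome 2, facing each other tail to tail with 7668 bp between them (IGFBP2 at 216632828 to 216664436 on the plus strand, IGFBP5 at 216672105 to 216695549 on the minus strand, GRCh38, GENCODE v44). IGFBP1 (chromosome 7, 45888360 to 45893660, plus strand) and IGFBP3 (45912245 to 45921874, minus strand) face each other in the same way with 18584 bp between them. The other 6 genes lie apart: IGFBP6 (53097436 to 53102345) and IGF1 (102395874 to 102481744) on chromosome 12, IGF1R on 15 (98648539 to 98964530), IGFBP4 on 17 (40443450 to 40457725), INSR on 19 (7112255 to 7294414) and IGFBP7 on 4 (57030773 to 57110385). Counts were taken over the exons of each gene.

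Total counts ran from 4330334 (day 5 replicate 3) to 22089595 (day 0 replicate 2). Libraries of 1 day correlated with each other at 0.973 to 0.997, except on day 5, where the correlations were 0.907 to 0.967. A sum over 8 pluripotency markers averaged 8126 CPM (counts scaled to a common library size) at day 0, 1274 at day 7 and 2.78 on day 28, and a sum over 10 cardiomyocyte markers was 59.3 CPM at day 0, 20.9 at day 1, 35.1 at day 3, 2216 at day 5 and 39720 on day 28. From day 0 to day 28 both sums went with the labels of the days. The pluripotency sum was still 3205 CPM at day 3 and 2977 CPM at day 5, however. By the test described below, 7 of the 8 genes were lower at day 3 than at day 1 (19% of all genes tested were). At day 5 against day 3, 3 of the 8 were lower (6.33% of all), and none was higher in either step. The later cultures also held counts of other lists: 10 endoderm and liver markers summed to 1405 to 7305 CPM at day 14, 6 smooth muscle markers to 2558 to 3090 CPM at day 28, and 10 fibroblast and stroma markers to 3473 to 4003 CPM at day 28. In bulk libraries, fewer cells of a type and less RNA per cell cannot be told apart.

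Neighbouring days were compared in 7 steps and day 28 with day 0, by edgeR's quasi-likelihood test over 22245 genes, and a gene is called higher or lower where its p after Benjamini-Hochberg adjustment over all those genes was under 0.05. Of the 10 genes, 9 could be tested; IGF1 had too few counts. At day 1 against day 0, 1 gene was higher (15.3% of all genes tested were) and 1 lower (16.5% of all). At day 3 against day 1, 1 was higher (18.2% of all) and 1 lower (19% of all). At day 5 against day 3, 5 were higher (10.3% of all) and none lower (6.33% of all), and the median log2 change of the 9 was 1.74, against 0.01 over all genes. At day 7 against day 5, 1 was higher (5.32% of all) and 1 lower (5.02% of all). At day 10 against day 7, none was higher (4.17% of all) and 1 lower (3.5% of all), and at day 14 against day 10 none was higher (1.64% of all) and 2 lower (2.11% of all). At day 28 against day 14, 6 were higher (7.96% of all) and none lower (7.78% of all), with a median log2 change of 1.18 against -0.03 over all genes. At day 28 against day 0, 5 were higher (32.1% of all) and 2 lower (28.4% of all). By the number of calls, the genes therefore moved mainly in 2 steps, into day 5 and into day 28. The step from day 14 to day 28 is also the longest in time. The 5 at day 5 against day 3 ran from 3 to 5 in the fits that left out a library of either day. The 6 at day 28 against day 14 became 4 or 5 in each fit that left out a library of either day. Of the 27 calls, 20 passed under every alternative processing tried.

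**Figure D1:**
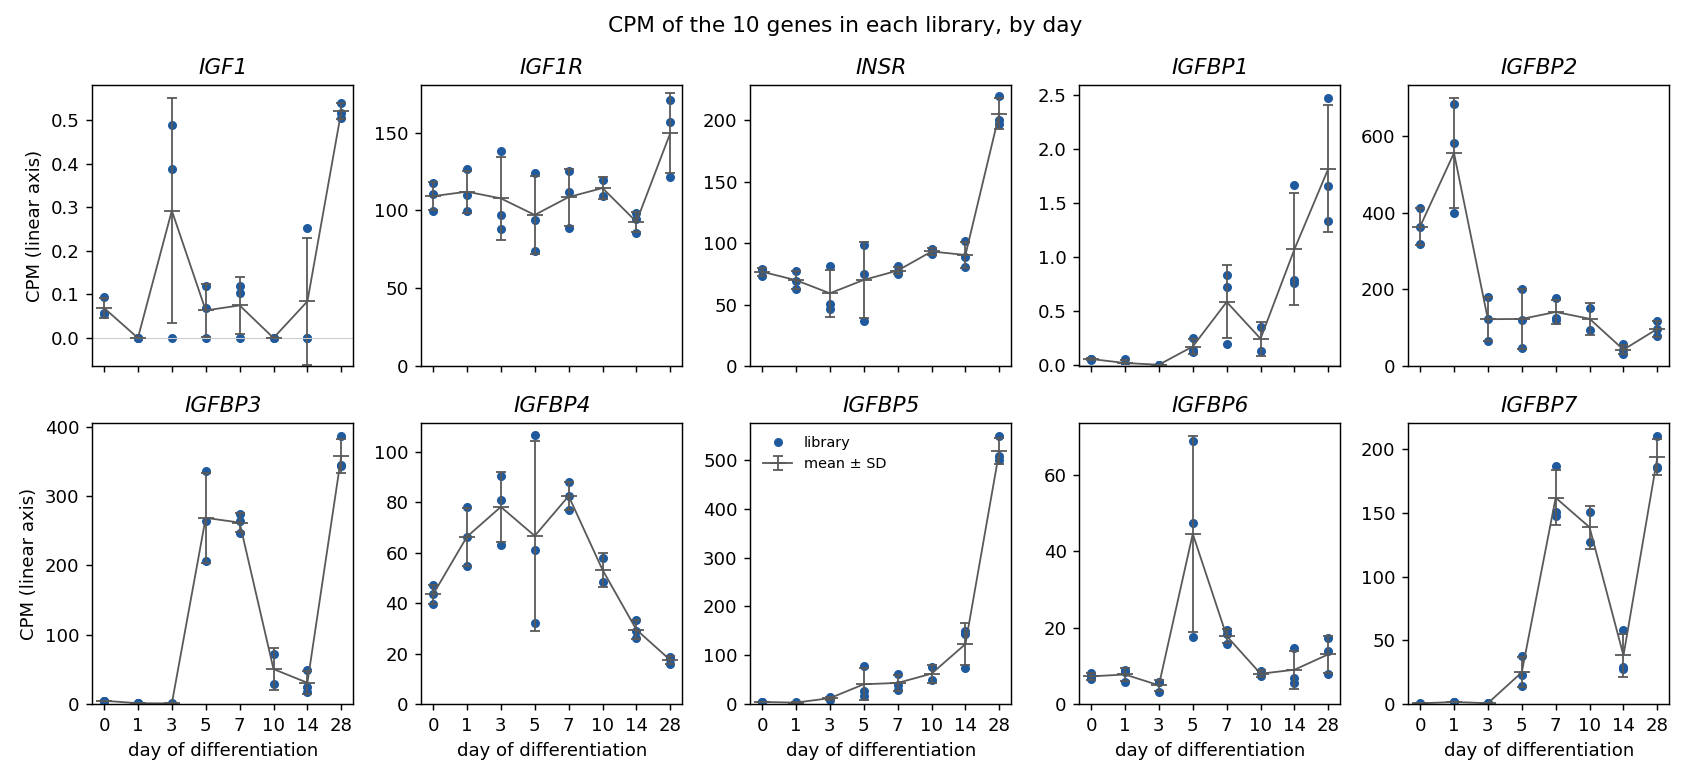
Level of each gene in CPM (linear axis, a scale of its own in each panel) by day, with days evenly spaced; points are libraries and bars the mean ± SD of 3 libraries (2 at day 10). IGFBP3 is low until day 3 and high at days 5, 7 and 28, IGFBP7 is low until day 3 and high at days 7, 10 and 28, while IGF1R stays between 73.8 and 171 CPM throughout.

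The receptor genes differed in how they changed. IGF1R, the receptor for IGF1 and IGF2, held a mean of 92.7 to 114 CPM on the 7 days up to day 14 and reached 150 ± 25.7 CPM at day 28 (SD, n = 3). Its libraries at day 28 held 171, 121 and 157 CPM, against 98.3, 94.3 and 85.4 CPM at day 14. The groups did not overlap, and the step was a log2 change of 0.69 ± 0.23 (SE, adjusted p = 0.0429). That call held without day 28 replicate 2 but was lost in the other 5 fits that left out a library of either day, and with upper-quartile scaling, library totals alone or no filter on low counts; its adjusted p over all alternatives ran from 0.00275 to 0.190. At day 28 against day 0 IGF1R did not pass (log2 change 0.46 ± 0.23, adjusted p = 0.0911; it passed under 3 of 15 alternatives), and no other step gave it a change beyond 0.31 in size on the log2 scale.

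INSR, the insulin receptor gene, moved further. Its 3 libraries at day 28 held 220, 200 and 197 CPM, against 80.7, 102 and 89.2 CPM at day 14, so every library of day 28 stood well above every one of day 14. The change was 1.18 ± 0.27 on the log2 scale (SE, adjusted p = 0.00242), and it passed under all 15 alternatives tried. Day 28 was also higher than day 0, by 1.42 ± 0.27 (adjusted p = 5.62e-05), where the day 0 libraries held 79.3, 73.2 and 78.1 CPM. The 7 earlier days ranged in mean from 59.3 CPM at day 3 to 93.3 CPM at day 10. In the order of its day means, each neighbouring pair below day 28 overlapped in its libraries. Day 5 was the most uneven, at 98.4, 75.1 and 37.0 CPM, the last in its shallowest library.

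Levels of different genes can be set side by side only per length of exon, here as CPM per kilobase (kb). On that scale the ratio of IGF1R to INSR was 1.10 ± 0.0485 at day 0, 1.24 ± 0.0223 at day 1, 1.44 ± 0.166 at day 3, 1.17 ± 0.332 at day 5, 1.08 ± 0.171 at day 7, 0.952 ± 0.0305 at day 10, 0.804 ± 0.124 at day 14 and then 0.565 ± 0.0816 at day 28 (SD, n = 3, day 10 n = 2). IGF1R stood above INSR in every library of days 0, 1 and 3, and below it in every library of days 10, 14 and 28. Where the ratio crosses 1 depends on the annotated exon lengths, 13941 bp for IGF1R and 10831 bp for INSR. These need not be those of the transcripts expressed, and in CPM IGF1R averaged 114 and INSR 93.3 at day 10. Day 28 was lower than day 0 in this ratio in every library, but with 3 libraries against 3 an exact two-sided permutation test cannot go below p = 0.1, which is the value it gave.

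**Figure D2:**
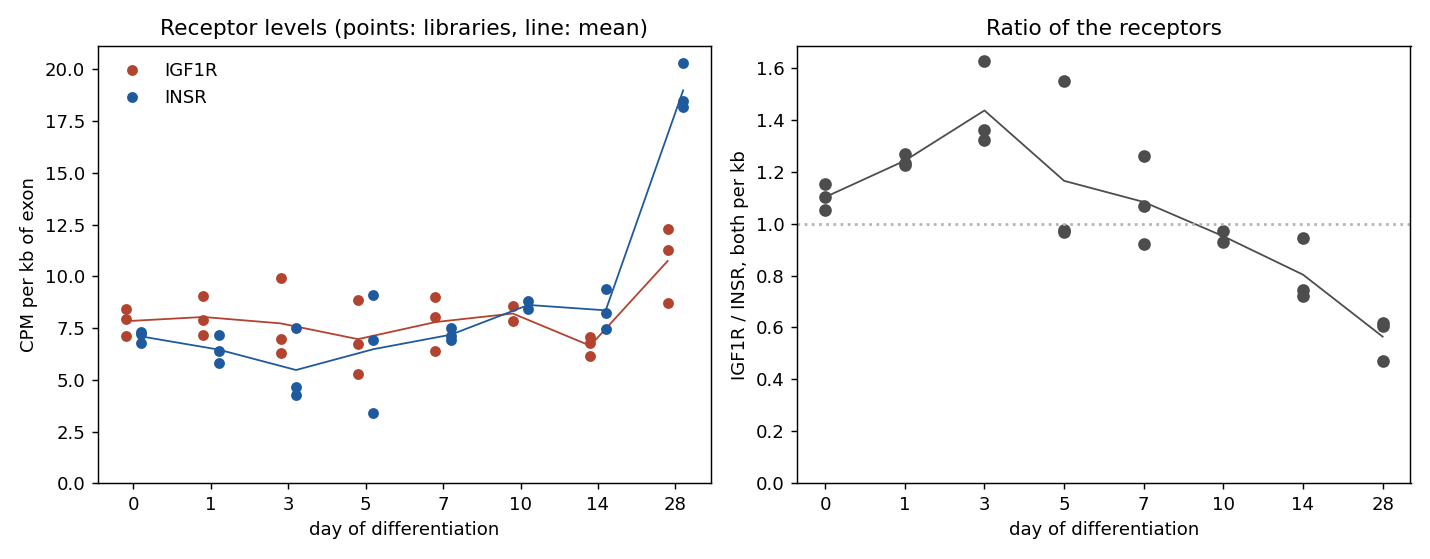
Left, CPM per kb of exon of IGF1R and INSR by day, with points for libraries and lines through the means; right, the ratio of IGF1R to INSR in each library, with a dotted line at 1. The ratio lies above 1 in all libraries until day 3 and falls to 0.471 to 0.619 at day 28, where INSR is at its highest.

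IGF1, the ligand, was barely detected at this depth. It had 47 counts in the 23 libraries together. Day 28 held 7 counts in each library (0.517, 0.541 and 0.505 CPM), day 3 held 11, 5 and 0 counts (0.489, 0.389 and 0 CPM), and each library of the other days held at most 2. Day 28 thus had 21 counts in all, against 4 at day 0, a ratio of 7.40 with an exact 95% counting interval of 2.50 to 29.6, and against 2 at day 14, a ratio of 6.55 (interval 1.60 to 57.6); these intervals cover counting error only. No count was seen at days 1 and 10, which allows up to 0.0667 CPM at day 1 and 0.185 CPM at day 10 (3 counts over the day). Of its 8115 bp of exon, 6693 bp are shared with the antisense RNA gene HELLPAR, which had 2300 counts and a mean of 4.93 to 11.7 CPM by day. The strand setting of the counting is not given in the sources used here. It is thus not known whether reads in the shared exons were counted for IGF1, for HELLPAR or for neither. The IGF1 counts may therefore be too low or too high.

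IGFBP3, which carries most of the IGF in human blood, made the largest single step of the 10 genes. Its day 5 libraries held 336, 264 and 206 CPM, against 1.51, 1.01 and 0.904 CPM at day 3, a log2 change of 7.81 ± 0.43 (SE, adjusted p = 1.12e-12). It was already expressed in stem cells and lower at day 1: 1.39, 1.22 and 1.90 CPM, against 5.09, 4.81 and 5.08 CPM at day 0 (log2 change -1.75 ± 0.37, adjusted p = 0.00105). IGFBP3 therefore went through a trough at days 1 and 3 before its rise. At day 7 it held 247, 274 and 264 CPM, which overlapped day 5. It then fell: the 2 day 10 libraries held 29.5 and 71.8 CPM, below all 3 of day 7, with a log2 change of -2.37 ± 0.38 (adjusted p = 0.000365), and day 14 held 17.8, 50.0 and 24.98 CPM. At day 28 it was high again, at 344, 386 and 344 CPM, a log2 change of 3.53 ± 0.34 against day 14 (adjusted p = 5.56e-08) and of 6.16 ± 0.39 against day 0 (adjusted p = 9.93e-13). All 5 of these calls passed under every alternative tried, and the day with the highest mean held 313 times the CPM of the day with the lowest.

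IGFBP7 followed a similar course with a later first peak. Its day 5 libraries held 22.7, 14.5 and 37.8 CPM, against 1.11, 0.856 and 0.502 CPM at day 3 (log2 change 4.81 ± 0.40, adjusted p = 1.57e-09). Where IGFBP3 was level between days 5 and 7, IGFBP7 rose further, to 151, 148 and 187 CPM at day 7 (log2 change 2.72 ± 0.33 against day 5, adjusted p = 1.94e-06). It held 127 and 151 CPM at day 10 and then fell to 29.0, 58.0 and 27.6 CPM at day 14, a log2 change of -1.86 ± 0.34 (adjusted p = 0.00236). Day 28 stood at 185, 210 and 186 CPM, above all day 14 libraries, by 2.34 ± 0.32 on the log2 scale (adjusted p = 6.77e-06). Against day 0, where the libraries held 1.04, 0.471 and 0.577 CPM, day 28 was higher by 8.11 ± 0.43 (adjusted p = 4.11e-14), the largest change of any of the genes over the whole course. A small early rise at day 1 (1.93, 1.61 and 1.73 CPM; log2 change 1.33 ± 0.41 against day 0, adjusted p = 0.0170) rested on 78 counts at day 1 and was lost when day 0 replicate 2 or replicate 3 was left out (adjusted p = 0.0783 and 0.0508). IGFBP7 shares 260 bp of exon with POLR2B on the other strand, and at day 0 POLR2B averaged 296 CPM where IGFBP7 averaged 0.696 CPM.

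IGFBP5, the most conserved of the family and abundant in muscle and bone, rose more evenly. It held 4.05, 4.52 and 5.54 CPM at day 0 and 4.25, 2.54 and 3.11 CPM at day 1. Day 3 stood at 9.28, 12.1 and 15.8 CPM, above all of day 1, with a log2 change of 1.91 ± 0.43 (SE, adjusted p = 0.00105). Its day 5 libraries spread widely, at 78.5, 26.7 and 17.4 CPM, all above day 3, and the step of 1.74 ± 0.40 (adjusted p = 0.00288) fell to 0.86 with an adjusted p of 0.110 when day 5 replicate 1 was left out; it was also lost in the fit of the libraries of days 3 and 5 alone (adjusted p = 0.0698). The means then went up through 43.6 CPM at day 7, 62.5 at day 10 and 123 at day 14, with overlapping libraries at each of those steps and no call. At day 28 IGFBP5 was at 548, 499 and 507 CPM, a log2 change of 2.07 ± 0.40 against day 14 (adjusted p = 0.000493) and of 6.78 ± 0.50 against day 0 (adjusted p = 1.36e-11).

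IGFBP6, which prefers IGF2 over IGF1, was highest at day 5. Its day 5 libraries held 47.3, 17.7 and 68.8 CPM, against 3.29, 5.76 and 5.83 CPM at day 3, a log2 change of 3.17 ± 0.41 (SE, adjusted p = 2.48e-06) that passed under all 16 alternatives. By day 7 it stood at 15.7, 19.4 and 18.5 CPM, and the 2 days overlapped because 1 day 5 library was low. That decrease of -1.30 ± 0.38 (adjusted p = 0.0294) was lost in each fit that left out a library of either day (adjusted p = 0.0813 to 0.136) except the one without day 5 replicate 2, and its size was -0.85 without day 5 replicate 3. It was also lost with library totals alone (0.0594), in the fit of the libraries of days 5 and 7 alone (0.143) and without the 2 shallowest libraries (log2 change -0.77, 0.270). From day 10 on the mean stayed between 7.99 and 13.1 CPM, and day 28 did not differ from day 0 by the test (log2 change 0.84 ± 0.38, adjusted p = 0.0611, passed under 4 of 15 alternatives; 14.0, 17.4 and 7.79 CPM against 7.00, 6.64 and 8.25 CPM).

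IGFBP2, a binding protein known for its abundance in embryonic and fetal cells, ran the other way. Its day 1 libraries held 582, 400 and 683 CPM, against 361, 317 and 413 CPM at day 0, a difference that did not pass (log2 change 0.61 ± 0.38, adjusted p = 0.227). At day 3 it stood at 64.4, 122 and 180 CPM, below every library of day 1, with a log2 change of -2.19 ± 0.40 (adjusted p = 0.000133). It kept a mean of 122 to 141 CPM until day 10. Day 14 was lower, at 31.4, 56.3 and 40.8 CPM against 94.2 and 152 CPM at day 10 (log2 change -1.53 ± 0.43, adjusted p = 0.0446), and day 28 was higher than day 14 again, at 95.9, 118 and 77.4 CPM (log2 change 1.18 ± 0.39, adjusted p = 0.0408). Both of these late calls were lost in some fits: the first without day 10 replicate 2, day 14 replicate 1 or day 14 replicate 3 (adjusted p = 0.116 to 0.372), and the second without replicate 1 or 3 of day 14 or replicate 1 or 2 of day 28 (0.0700 to 0.154). With upper-quartile scaling both were lost (0.0512 and 0.0815), and with library totals alone the second was (0.0808). The net fall at day 28 against day 0 was firm (log2 change -1.91 ± 0.40, adjusted p = 0.000195), and passed under all 15 alternatives.

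IGFBP4, a soluble binding protein that PAPPA cuts in the presence of IGF, had its highest mean at day 7 and its lowest at day 28. Its mean was 43.5 ± 3.71 CPM at day 0, 66.3 ± 11.6 at day 1, 78.2 ± 14.0 at day 3, 66.7 ± 37.6 at day 5, 82.5 ± 5.39 at day 7, 53.2 ± 6.75 at day 10, 29.5 ± 3.74 at day 14 and then 17.5 ± 1.46 at day 28 (SD, n = 3, day 10 n = 2). No step between neighbouring days passed. The libraries did not overlap at day 1 against day 0, day 10 against day 7, day 14 against day 10 and day 28 against day 14. How many of all genes did so was not counted. Those 4 steps passed in the fit of the 2 days alone (adjusted p = 0.0225, 0.0168, 0.0252 and 0.000968). In the last 3 of them that fit also called more of all genes (4499 from 1706, 1861 from 833 and 6274 from 3501). Without day 5 replicate 3, day 5 was lower than day 3 (log2 change -0.75, adjusted p = 0.0342) and day 7 higher than day 5 (0.83, 0.0215). Day 28 was lower than day 0, at 15.8, 18.5 and 18.1 CPM against 47.0, 43.7 and 39.6 CPM, with a log2 change of -1.31 ± 0.29 (adjusted p = 0.000329).

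IGFBP1, a binding protein that the liver and the decidua secrete, was rare throughout. It had 3 counts at day 0, 1 at day 1 and none at day 3, then 4 at day 5, 15 at day 7, 4 at day 10, 27 at day 14 and 73 on day 28. Day 28 held 1.33, 2.47 and 1.66 CPM, and its 73 counts against 3 at day 0 made a ratio of 34.3 with an exact 95% counting interval of 11.3 to 170 (edgeR adjusted p = 2.18e-07). The call at day 5 against day 3 (adjusted p = 0.0387) rested on 4 counts against 0, at least 2.26-fold against 3 counts over day 3, and was lost in each of the 6 fits that left out a library, with DESeq2 (adjusted p = 0.0789) and without a filter on low counts (0.124). Day 14, where the endoderm and liver markers summed highest (1405 to 7305 CPM), held 0.790, 1.67 and 0.757 CPM of IGFBP1. At day 28 those markers summed to 640 to 1067 CPM, while IGFBP1 had its highest mean, 1.82 CPM. The IGFBP1 change between these days did not pass (edgeR adjusted p = 0.284). The part of such cells in the IGFBP1 level was not tested.

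**Figure D3:**
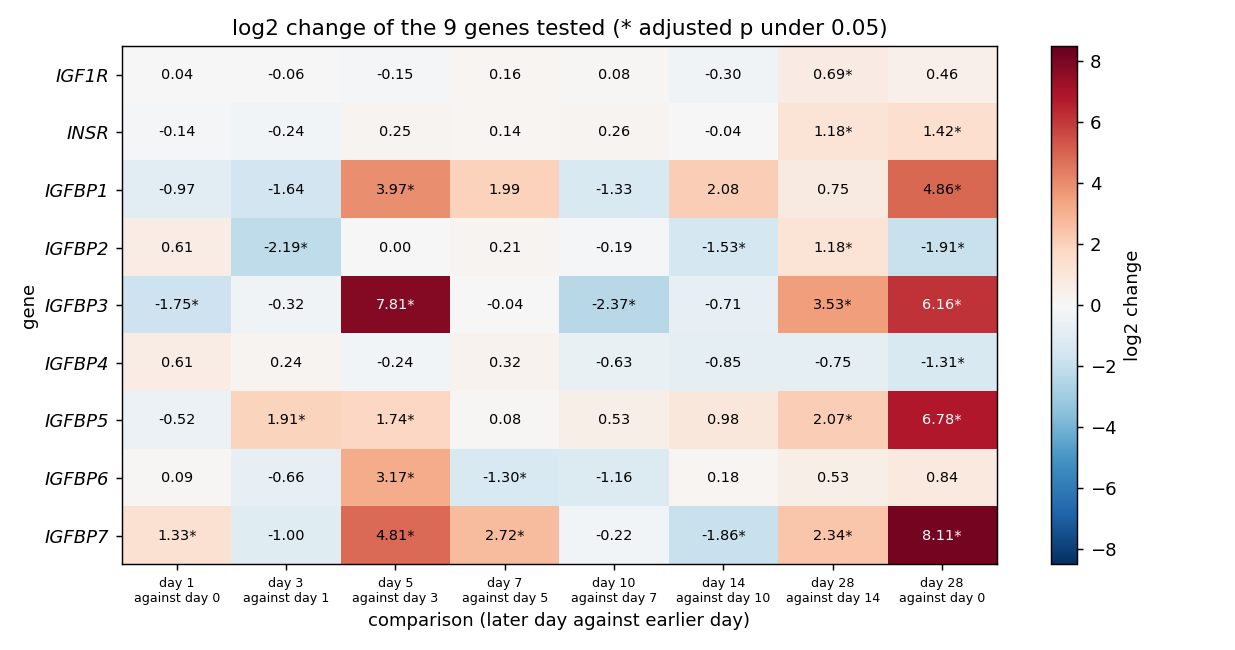
Log2 change of the 9 genes tested in each comparison of a later with an earlier day, with * for an adjusted p under 0.05. Among neighbouring days, the starred cells gather in day 5 against day 3 (5 genes, all higher) and in day 28 against day 14 (6 genes, all higher). Day 28 against day 0 has 5 starred genes higher and 2 lower. The IGFBP1 values rest on few counts.

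As shares of the summed level per kb of the 7 binding protein genes, the family changed its leading member along the course. IGFBP2 made up 73.5 ± 2.82% at day 0 and 75.4 ± 1.88% at day 1, with IGFBP4 at 19.1 ± 2.87% and 19.7 ± 1.70% on the same days (SD, n = 3). At day 3 IGFBP4 led with 53.8 ± 8.25%, ahead of IGFBP2 with 36.7 ± 8.90%, although the CPM of IGFBP4 had not passed the test. In day 3 replicate 3 IGFBP2 was ahead (46.4% against 44.8%). In CPM, IGFBP2 averaged 122 and IGFBP4 78.2 at day 3, so their order rests on the exon lengths used (4742 and 2205 bp). Each share depends on the annotated exon length of its gene, which need not be that of the transcripts expressed. IGFBP3 held 38.4 ± 16.3% at day 5, the most uneven share, which ran from 21.5% to 54.0% among the 3 libraries, and in day 5 replicate 3 IGFBP6 was ahead with 24.4%. IGFBP7 led at day 7 with 36.6 ± 1.74% and at day 10 with 48.7 ± 4.19%. At day 28 IGFBP7, IGFBP5 and IGFBP3 stood at 33.7 ± 0.964%, 27.0 ± 2.38% and 26.3 ± 0.653%, and IGFBP2 at 6.82 ± 0.998%. The summed level itself was 298 ± 18.6 CPM per kb at day 28, against 104 ± 10.0 at day 0 and 75.4 ± 7.33 at day 14. Day 28 did not overlap with either day, and each exact permutation test gave p = 0.1, the smallest that 3 against 3 libraries allow.

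**Figure D4:**
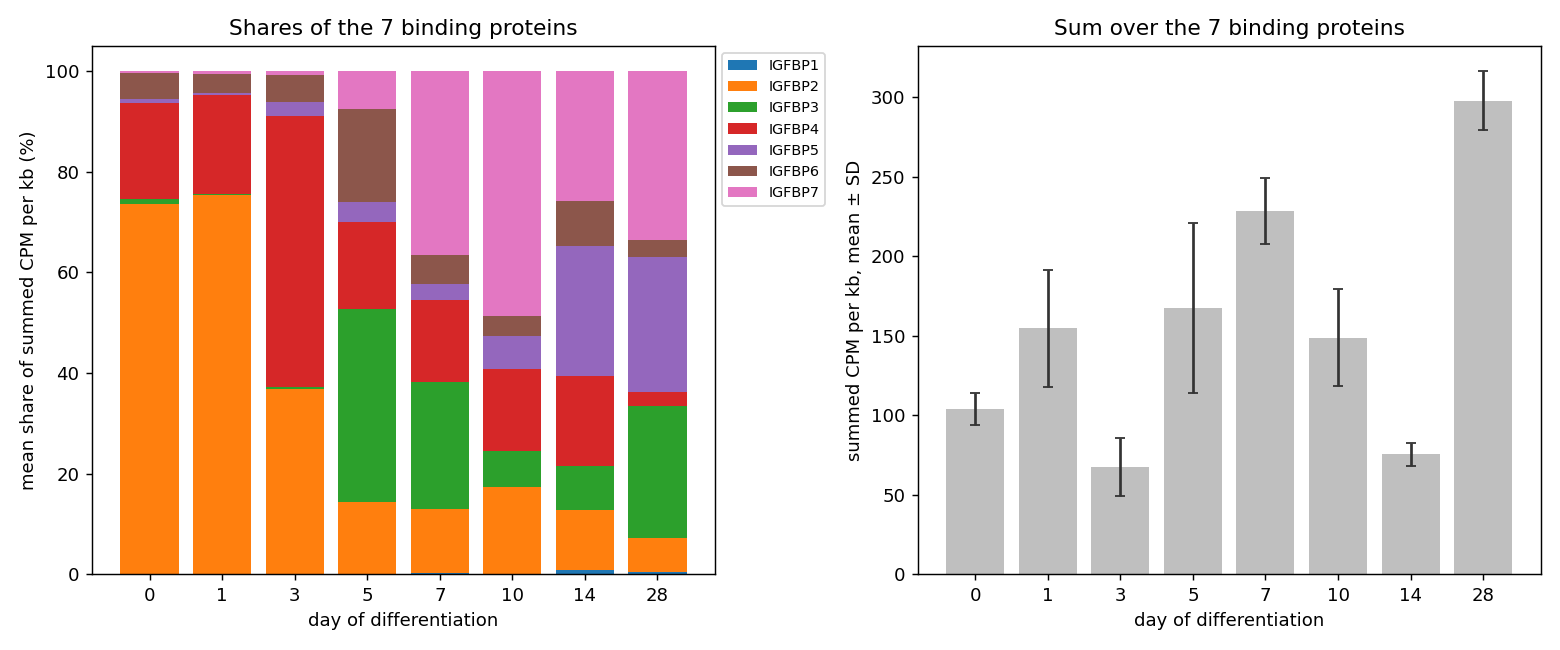
Left, mean share of each binding protein gene in their summed CPM per kb of exon by day; right, that sum as mean ± SD (3 libraries, 2 at day 10). IGFBP2 falls to 6.82% at day 28, where the sum is highest at 298 CPM per kb.

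Among the 36 pairs of the 9 tested genes, the correlation of log2(CPM + 1) over the 23 libraries was highest for IGFBP3 with IGFBP7 (Pearson r = 0.881) and lowest for INSR with IGFBP4 (r = -0.816). The neighbours IGFBP2 and IGFBP5 went in opposite directions (r = -0.702), and IGFBP1 and IGFBP3 in the same one (r = 0.642). Over all tested protein-coding genes with enough counts (12993), the 3 most like IGFBP3 were the collagen genes COL1A1 (r = 0.957) and COL3A1 (r = 0.957) and the neurotrophin receptor gene NTRK2 (r = 0.951). Those most like IGFBP7 were ACTA2, which encodes smooth muscle actin (r = 0.982), TGM2, a transglutaminase (r = 0.977), and TGFB3, a TGF-beta ligand (r = 0.974). COL1A1 and COL3A1 are in the fibroblast and stroma list and ACTA2 in the smooth muscle list used below. IGFBP5 went with TOM1L2, GSTM3 and LOXL4 (r = 0.961, 0.955 and 0.954), IGFBP4 with the ribosomal protein genes RPL28 and RPL37A and with NPHP4 (r = 0.966, 0.959 and 0.953), and IGFBP2 with GADD45GIP1, SSNA1 and CTDP1 (r = 0.939, 0.937 and 0.935). INSR went with TEX2, MANSC1 and CEMIP (r = 0.943, 0.932 and 0.924), IGFBP1 with TECTA, CCDC9B and CES4A (r = 0.932, 0.908 and 0.908), and IGFBP6 with ZNF362, ASTN1 and PANX2 (r = 0.879, 0.874 and 0.867). IGF1R had the weakest likeness, with ZNF671 at 0.753, TRIO at 0.724 and SPTAN1 at 0.703. These points share libraries and days, and the names depend on the measure: by Spearman correlation at most 2 of the 3 stayed for any gene.

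The marker lists moved beside the binding proteins. Of all genes tested, 10.3% were higher and 6.33% lower at day 5 against day 3. These shares were 7.96% and 7.78% at day 28 against day 14, and 32.1% and 28.4% at day 28 against day 0. The fibroblast and stroma list summed to 3116 to 3544 CPM at day 5, against 697 to 1119 CPM at day 3, with 7 of its 10 genes higher and 1 lower. At day 28 it summed to 3473 to 4003 CPM, against 530 to 954 CPM at day 14, with 7 of 10 higher and none lower; no gene of the list was at 0 on these days. COL3A1, a fibrillar collagen, averaged 1060 CPM at day 5 and 0.745 CPM at day 3, and 2217 CPM at day 28 and 260 CPM at day 14. The smooth muscle list summed to 356 to 814 CPM at day 5, against 39.6 to 63.9 CPM at day 3 (5 of 6 higher), and to 2558 to 3090 CPM at day 28, against 336 to 544 CPM at day 14 (6 of 6 higher). It was 1305 to 1395 CPM at day 7 and 1222 to 1467 CPM at day 10, the days on which IGFBP7 was also high. The cardiomyocyte list had 8 of 10 genes higher at day 5 against day 3, and 4 of 10 higher with 1 lower at day 28 against day 14. The epicardial list peaked at day 5, at 112 to 197 CPM against 15.1 to 37.9 CPM at day 3, with 4 of 8 genes higher and 1 lower, and in that step 7 of the 10 endoderm and liver genes were also higher and 1 lower. The endothelial list summed to 69.0 to 72.3 CPM at day 28, against 159 to 226 CPM at day 14, with 1 of its 10 genes higher and 3 lower. Its sum at day 0 was 442 to 455 CPM, with 3 genes higher and 5 lower at day 28. In both comparisons the count of genes higher lay near the share of all genes. The endothelial sum was highest at day 7, at 611 to 623 CPM against 184 to 452 CPM at day 5. In that step 6 of its 10 genes were higher and none lower (5.32% and 5.02% of all), and IGFBP7 was higher too. At day 10 against day 7, 3 were lower and none higher (3.5% and 4.17% of all), where IGFBP7 did not pass. At day 14 against day 10, 4 were lower and none higher (2.11% and 1.64% of all), and IGFBP7 was lower too. KDR was the largest term of the endothelial sum on every day, with a mean of 34.0 CPM at day 28, 140 CPM at day 14 and 354 CPM at day 0. PECAM1 and CDH5, which define endothelial cells, averaged 1.02 and 1.12 CPM at day 28, against 3.02 and 6.98 CPM at day 14 and 0.0881 and 1.30 CPM at day 0. The part of these cell types in the binding protein levels was not tested.

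**Figure D5:**
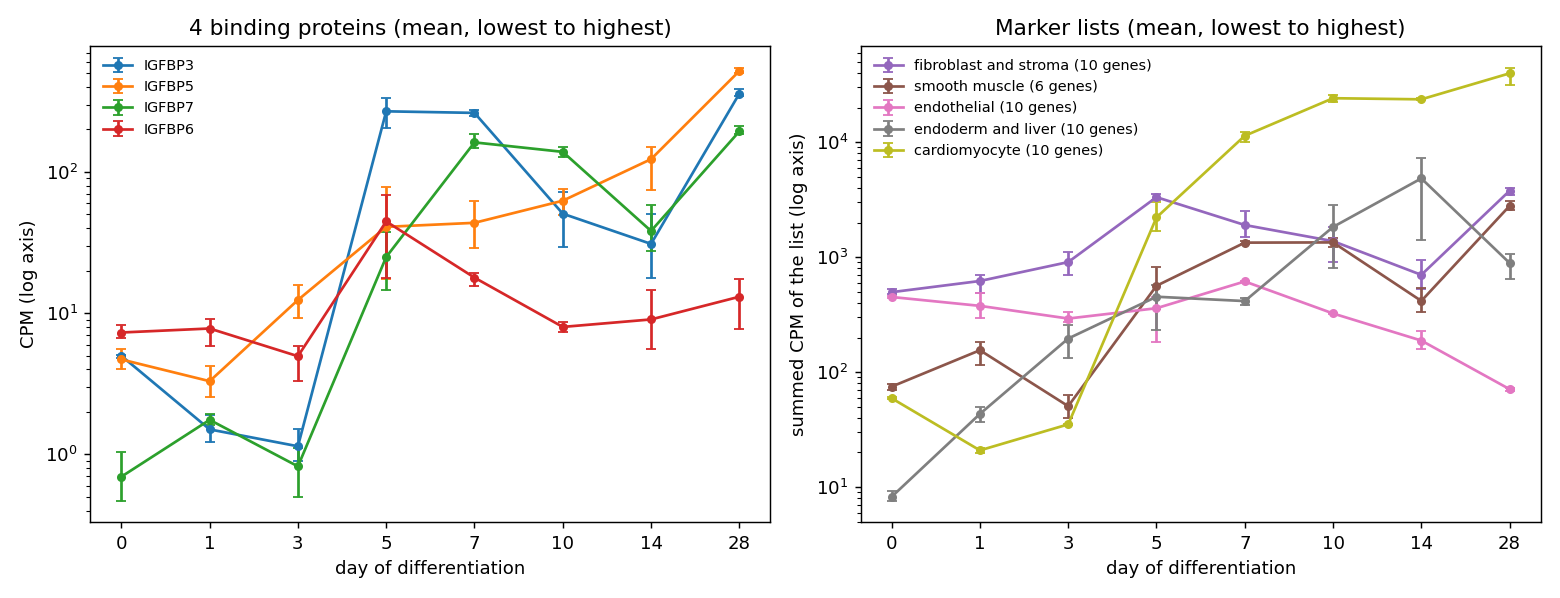
Left, CPM of IGFBP3, IGFBP5, IGFBP7 and IGFBP6 by day; right, summed CPM of 5 marker lists (log axes; points are means and bars run from the lowest to the highest library). IGFBP3 and IGFBP7 dip at day 14 and peak at day 28 as the fibroblast and stroma list and the smooth muscle list do. The endothelial sum, of which KDR is the largest term, is highest at day 7 and lowest at day 28.

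Of 52 further genes of the pathway, 49 could be tested. At day 1 against day 0, 10 were higher and 14 lower (15.3% and 16.5% of all genes tested), and at day 3 against day 1, 14 were higher and 17 lower (18.2% and 19% of all). At day 5 against day 3, 8 were higher and 4 lower (10.3% and 6.33% of all), and at day 28 against day 14, 8 were higher and 7 lower (7.96% and 7.78% of all). At day 28 against day 0, 25 were higher and 12 lower (32.1% and 28.4% of all), with a median log2 change of 0.70 against 0.09 over all genes. The step to day 7 had 4 higher and 5 lower (5.32% and 5.02% of all), the step to day 10 had 6 and 3 (4.17% and 3.5% of all), and the step to day 14 had none and 3 (1.64% and 2.11% of all). PI3K and AKT genes were higher in 8 of 10 at day 28 against day 0 and lower in none, whereas the 12 genes listed as adaptors, among them the inhibitors GRB10, GRB14 and SOCS2 and the phosphatase gene PTPN1, had 4 higher and 6 lower.

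IGF2, the ligand that the embryo chiefly uses, was the large ligand signal in these libraries. It averaged 282.7 ± 43.4 CPM at day 5, against 11.8 ± 3.24 CPM at day 3 (log2 change 4.58 ± 0.46, SE, adjusted p = 4.06e-08), and day 3 in turn was higher than day 1, where it averaged 0.219 ± 0.150 CPM (log2 change 5.79 ± 0.61, adjusted p = 4.89e-08). At day 28 it averaged 518.3 ± 81.3 CPM (SD, n = 3), against 233 ± 101 CPM at day 14, and the step, named here after its value was seen, passed narrowly (log2 change 1.15 ± 0.40, adjusted p = 0.0480). The steps into days 5 and 28, in which 5 and 6 of the 9 tested genes were higher, were thus also steps of IGF2. Its largest step between neighbouring days, however, was into day 3, where 1 of the 9 was higher and 1 lower. A link between these steps was not tested. The readthrough gene INS-IGF2, which shares 1460 bp of exon with IGF2, had 5 counts in all libraries, against 43359 for IGF2. An unnamed gene on the same strand shares 2711 bp of exon with IGF2, and no counts of it were found. It is not known how reads in these shared exons were counted, so these counts cannot show how much readthrough there was.

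Other members of the list moved at other steps. IGFBPL1, a relative of the binding proteins, averaged 157 ± 34.2 CPM at day 1 against 21.2 ± 0.732 CPM at day 0 (log2 change 2.89 ± 0.26, adjusted p = 7.90e-09). Its mean was down to 40.35 ± 8.47 CPM at day 3, and it fell at both steps from day 3 to day 7. The metalloprotease genes had separate peaks: PAPPA averaged 57.0 ± 7.52 CPM at day 3 and again 45.8 ± 5.13 CPM at day 28, against 10.2 ± 4.99 CPM at day 14 (log2 change 2.17 ± 0.33, adjusted p = 3.05e-05), whereas PAPPA2 averaged 23.5 ± 4.20 CPM at day 10 against 5.55 ± 0.222 CPM at day 7 (log2 change 2.08 ± 0.33, adjusted p = 0.000292). PRSS23, a serine protease gene, rose at day 7, had its highest mean at day 10 (308.9 ± 14.0 CPM) and fell at day 14 (log2 change -1.48 ± 0.25 against day 10, adjusted p = 0.00138). Of the adaptor list, IRS4 was at 0 in every day 14 library, against 11.3 ± 0.630 CPM at day 0, and GRB14, an inhibitor of the insulin receptor, fell at day 28 to 2.08 CPM, against 16.5 CPM at day 14 (log2 change -2.98 ± 0.28, adjusted p = 3.44e-08), the same step at which INSR rose. PIK3R1, the regulatory subunit of PI3K, averaged 218 ± 32.4 CPM at day 28 and 44.4 ± 7.24 CPM at day 14 (log2 change 2.29 ± 0.32, adjusted p = 1.04e-05). FOXO1, a transcription factor that AKT excludes from the nucleus, was lower at day 1 than at day 0 (24.7 against 97.1 CPM; log2 change -1.97 ± 0.25, adjusted p = 2.10e-06). INSRR, an orphan relative of the insulin receptor, averaged 2.52 CPM at day 3 and was at 0 in each day 1 library.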

How the data were processed

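Total RNA of 23 libraries was sequenced paired-end on an Illumina NextSeq after ribosomal RNA depletion (TruSeq Stranded Total RNA), per the labels. Trim Galore 0.65 cut the reads to 50 bases, STAR 2.7.0 mapped them to GRCh38, and genes were counted with HTSeq on GENCODE v38, per the submitters' processing notes. The deposited values are raw counts per gene and library; the strand setting is not given in the sources used here.

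Symbols, exon lengths and positions were taken from GENCODE v44, which held 56387 of the 57477 identifiers used; 44 Y copies of pseudoautosomal genes were left out. CPM used library sizes scaled by TMM, and CPM per kb the union of exons. One edgeR 4.0.16 quasi-likelihood model (robust, R 4.3.3) of all 23 libraries with day as factor was fitted after filterByExpr with a minimum of 10 counts, and p-values were adjusted by Benjamini-Hochberg over 22245 genes. The script was tested on simulated data. Alternatives were other scalings (RLE, upper quartile, library totals, no mitochondrial genes), DESeq2 1.42.0, a minimum of 30 counts or none, the 2 days' libraries alone, the replicate number as a block, and each library left out. Leaving out the 2 shallowest libraries was added after seeing the data. Deviations of same-numbered libraries correlated at 0.109 to 0.404 for day 1 against day 0, and at -0.647 to 0.395 in the other comparisons. Libraries of different number were not compared, so these values cannot decide whether the replicate numbers pair samples. The genes and lists were chosen with earlier results of these data known. All genes of the family are named; of the pathway list, the 2 called genes with the largest rise and fall at each step were eligible, and for likeness the 3 highest Pearson correlations. Intervals and floors (3 counts) cover counting error only.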

Additional observations from a re-analysis of the deposited data

How the results depend on the processing

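Of 159 called values tried with 1 library left out, 133 kept their call and 26 lost it; of 248 under other alternatives, 235 kept it and 13 lost it. Values not called gained a call 6 times with 1 library left out and 17 times under other alternatives, and no called value of the 9 genes changed sign. With the replicate number as a block the calls of the genes stayed at 5 for day 5 against day 3 and 6 for day 28 against day 14, and none of the 27 changed. The 7 calls lost somewhere were IGFBP7 at day 1, IGFBP1 and IGFBP5 at day 5, IGFBP6 at day 7, IGFBP2 at day 14, and IGFBP2 and IGF1R at day 28 against day 14; the cause was not tested. Counts of the 9 genes called became, in the fit of the 2 days alone, 5 (from 2) at day 1, 3 (from 5) at day 5, 1 (from 2) at day 7 and 3 (from 1) on day 10; they became 1 (from 2) at day 14 with upper-quartile scaling, 1 (from 2) at day 7 with library totals, and 2 (from 1) on day 10 without a filter. Leaving out 1 library gave 1 to 3 at day 1 (1 without day 0 replicate 2 or 3), 3 to 5 at day 5 (3 without day 5 replicate 1), 1 to 2 at day 7 (1 without day 5 replicate 1 or any library of day 7) and 1 to 3 on day 14 (1 without day 10 replicate 2, day 14 replicate 1 or day 14 replicate 3). At day 28 against day 14 it gave 4 to 5, below the 6 of the whole fit. Over all genes, the fit of the 2 days alone called 1402 (from 3698) at day 5, 755 (from 2301) at day 7, 4499 (from 1706) at day 10, 1861 (from 833) at day 14 and, for day 28 against day 14, 6274 (from 3501), and DESeq2 1314 at day 14. With 1 library left out, all genes called ran from 3944 to 8397 at day 1, 2878 to 7886 at day 5, 1311 to 3855 at day 7, 292 to 1005 at day 10 and 186 to 778 on day 14. The pathway list moved by over 1.5 times in 5 of 75 counts, to 5 (from 3) at day 14 with DESeq2 and, with the 2 days alone, to 6 (from 12) at day 5, 2 (from 9) at day 7, 19 (from 9) at day 10 and 7 (from 3) on day 14. With 1 library left out it ran from 13 to 25 at day 1, 20 to 29 at day 3, 10 to 18 at day 5, 5 to 15 at day 7, 3 to 7 at day 10 and 1 to 3 on day 14.

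Sign changes were limited to log2 values that were not called; the largest of these, IGFBP3 at day 14 (-0.71), was 0.036 without day 10 replicate 2. With library totals alone these were IGF1R at day 1 (-0.065), day 3 (0.17) and day 10 (-0.11), IGFBP2 at day 5 (-0.12), IGFBP3 at day 7 (0.11), IGFBP6 at day 1 (-0.028) and INSR at day 14 (0.016). In the fit of the 2 days alone they were IGF1R at day 1 (-0.043) and day 3 (0.060), IGFBP2 at day 5 (-0.019) and IGFBP6 at day 1 (-0.0087). IGFBP2 at day 5 was -0.006 with DESeq2, -0.0087 with RLE, -0.038 without mitochondrial genes and -0.22 without a filter; IGFBP3 at day 7 was 0.016 with DESeq2, 0.0159 with RLE, 0.034 without a filter and 0.0073 with upper-quartile scaling; and IGF1R at day 3 was 0.014 without mitochondrial genes and 0.0067 with upper-quartile scaling. Without the 2 shallowest libraries (4330334 and 4506749 counts), a choice made after seeing the data, IGF1R was 0.015 at day 5 and -0.12 at day 7, IGFBP2 -0.55 at day 5, IGFBP5 -0.61 at day 7 and INSR -0.15 at day 7. With 1 library left out, IGF1R ran from -0.025 to 0.13 at day 1, -0.22 to 0.13 at day 3, -0.36 to 0.047 at day 5, -0.0033 to 0.37 at day 7 and -0.10 to 0.14 at day 10. IGFBP2 ran from -0.55 to 0.36 at day 5, -0.067 to 0.76 at day 7 and -0.65 to 0.087 at day 10, IGFBP3 from -0.20 to 0.16 at day 7 and -1.32 to 0.036 at day 14, and IGFBP5 from -0.27 to 0.96 at day 7. IGFBP6 ran from -0.0012 to 0.30 at day 1 and -0.42 to 0.37 at day 14, and INSR from -0.067 to 0.55 at day 5 and -0.16 to 0.46 at day 7. Depth limits IGF1 and IGFBP1, and day 5 has the most uneven libraries.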
